A study of Mus musculus with 2 samples.

Results

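The regions described here are stretches of open chromatin that lay inside protein-coding exons, away from any annotated transcription start. They were taken from the right cerebral cortex of female adult B6CASTF1/J mice, first-generation hybrids of C57BL/6J and CAST/EiJ, aged 18 to 20 months. The animals were untreated, there was no control group, and the only group held 2 libraries, replicate 1 and replicate 2. The libraries have separate biosample labels and 1 donor identifier, and no label says that they came from different animals, so technical variation may be part of what separates them. A region was formed by merging the peaks of both libraries, and it was shared when it held a peak of each. Of 63270 shared regions on the 19 autosomes, 1001 were kept (1.58%, exact 95% interval 1.49% to 1.68%): their midpoint lay in a coding segment of a protein-coding gene of GENCODE M21, and no base lay within 500 bp of a start. They are called coding-exon regions below.

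DNase-seq marks chromatin that the enzyme DNase I can cut, which is usually DNA cleared of nucleosomes by bound transcription factors. Open chromatin is best known from promoters and from enhancers in introns and between genes. A coding exon can carry such an element too, and its bases then serve both the protein code and the binding of a factor. A footprint is a short stretch within an open region that is protected from cutting, as under a bound protein. CTCF, a zinc finger protein that anchors chromatin loops, has a long recognition sequence and was among the factors whose motifs were searched here.

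Each library carried a deposited signal per peak, and no source used here states how it was normalized. The signal took only whole multiples of 1 step in both libraries, and if 1 step is 1 read the depths were 201.2 M and 112 M reads (M for mega). On that reading the median coding-exon region held 156 reads in replicate 1, with an exact 95% Poisson interval of 132 to 182. In replicate 2 it held 130 (109 to 154), and the weakest regions held 40 and 24. These intervals, and all binomial intervals below, cover counting error only. Over all shared autosomal regions replicate 2 was 1.36-fold higher at the median. As a check of the tissue label, the promoters of 4 of 4 pan-neuronal and 3 of 4 excitatory-neuron marker genes were open in both libraries, against 0 of 3 for each of the lists for inhibitory neurons, microglia, striated muscle and hepatocytes. For astrocytes and oligodendrocytes it was 1 of 3 each.

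The 4 sequences that follow belong to the highest regions by mean log2 value, the order used throughout, that lay free of untranslated bases and measured at most 300 bases. All sequences are the mm10 reference, which is the C57BL/6J allele, printed 5′ to 3′ on the strand of the host gene. Capitals mark bases that were inside a footprint in both libraries. They show how called footprints sat within the open DNA. There were 6 runs of capitals in 2310034G01Rik (chr19:46348841-46349100, minus strand) and 3 in Gm11168 (chr9:3006800-3006920, plus strand). There were 4 in Utp4 (chr8:106906161-106906420, plus strand) and 4 in Gabbr2 (chr4:46684221-46684460, minus strand). The sequence around the midpoint of Gm11168 was wholly masked as repeat in the reference. Its footprints may rest on reads from other repeat copies, which was not tested.
2310034G01Rik: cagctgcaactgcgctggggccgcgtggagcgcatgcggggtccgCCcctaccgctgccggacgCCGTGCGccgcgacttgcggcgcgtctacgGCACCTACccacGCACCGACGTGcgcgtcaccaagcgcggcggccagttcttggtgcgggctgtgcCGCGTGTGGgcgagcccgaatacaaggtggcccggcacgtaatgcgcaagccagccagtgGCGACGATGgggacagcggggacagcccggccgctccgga
Gm11168: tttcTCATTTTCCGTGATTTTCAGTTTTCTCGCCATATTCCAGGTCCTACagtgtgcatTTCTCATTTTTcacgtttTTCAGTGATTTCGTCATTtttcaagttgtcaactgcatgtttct
Utp4: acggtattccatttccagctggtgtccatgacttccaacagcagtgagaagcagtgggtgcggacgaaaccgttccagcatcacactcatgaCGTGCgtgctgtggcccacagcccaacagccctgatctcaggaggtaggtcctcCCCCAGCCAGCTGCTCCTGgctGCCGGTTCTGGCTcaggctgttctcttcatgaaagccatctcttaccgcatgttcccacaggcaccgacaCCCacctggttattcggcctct
Gabbr2: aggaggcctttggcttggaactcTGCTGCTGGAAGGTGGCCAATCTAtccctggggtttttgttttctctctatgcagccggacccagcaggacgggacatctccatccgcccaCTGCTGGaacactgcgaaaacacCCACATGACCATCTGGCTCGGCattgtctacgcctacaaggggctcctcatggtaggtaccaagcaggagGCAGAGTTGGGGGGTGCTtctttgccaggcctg

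The next 3 sequences hold a CTCF match, in capitals, that lay inside a footprint of both libraries. They are high in mean log2 value among such regions that met the same limits on length and untranslated bases, and not every higher one is printed. The regions are in Synpo2l (chr14:20661041-20661280, minus strand), Irs2 (chr8:11007081-11007280, minus strand) and Dgki (chr6:37097481-37097660, minus strand). In Synpo2l and Irs2 the whole region was coding, so the 12 capital bases are part of the protein code. In Dgki the region held a whole exon of 75 bp and the flanking intron.
Synpo2l: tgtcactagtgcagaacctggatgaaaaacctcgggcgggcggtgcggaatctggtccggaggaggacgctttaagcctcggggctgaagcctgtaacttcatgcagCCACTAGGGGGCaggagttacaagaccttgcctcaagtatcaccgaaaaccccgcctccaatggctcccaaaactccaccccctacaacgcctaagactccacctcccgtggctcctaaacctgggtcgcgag
Irs2: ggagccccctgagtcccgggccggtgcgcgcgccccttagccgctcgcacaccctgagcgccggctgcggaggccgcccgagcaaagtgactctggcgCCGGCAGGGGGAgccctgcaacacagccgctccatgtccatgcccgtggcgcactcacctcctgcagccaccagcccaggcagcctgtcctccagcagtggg
Dgki: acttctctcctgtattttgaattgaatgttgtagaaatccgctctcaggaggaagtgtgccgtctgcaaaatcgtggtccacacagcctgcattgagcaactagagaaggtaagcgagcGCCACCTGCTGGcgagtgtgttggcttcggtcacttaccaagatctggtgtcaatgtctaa

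The last 4 show open regions that ran across an intron-exon border, with the exon in capitals. These 4 met the same limits on length and untranslated bases. The 12 highest regions were left out of this set, and not every higher region is printed. Those in Arfgef3 (chr10:18627621-18627840, minus strand) and Ankrd11 (chr8:122931881-122932180, minus strand) cross the acceptor edge, where an exon begins. Those in Fry (chr5:150466261-150466460, plus strand) and Nol3 (chr8:105279081-105279320, plus strand) cross the donor edge, where an exon ends.
Arfgef3: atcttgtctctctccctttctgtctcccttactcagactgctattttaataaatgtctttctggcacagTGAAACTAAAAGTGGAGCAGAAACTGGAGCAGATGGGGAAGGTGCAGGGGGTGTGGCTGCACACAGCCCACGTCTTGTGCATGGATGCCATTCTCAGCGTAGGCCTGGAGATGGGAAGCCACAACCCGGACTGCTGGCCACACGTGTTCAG
Ankrd11: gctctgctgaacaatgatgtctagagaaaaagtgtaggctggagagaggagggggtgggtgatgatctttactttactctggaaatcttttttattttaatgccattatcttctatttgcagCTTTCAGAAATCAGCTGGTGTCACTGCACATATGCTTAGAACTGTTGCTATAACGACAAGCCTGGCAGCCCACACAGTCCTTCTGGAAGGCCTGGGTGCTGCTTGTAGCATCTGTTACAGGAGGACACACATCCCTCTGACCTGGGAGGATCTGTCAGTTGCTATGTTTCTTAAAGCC
Fry: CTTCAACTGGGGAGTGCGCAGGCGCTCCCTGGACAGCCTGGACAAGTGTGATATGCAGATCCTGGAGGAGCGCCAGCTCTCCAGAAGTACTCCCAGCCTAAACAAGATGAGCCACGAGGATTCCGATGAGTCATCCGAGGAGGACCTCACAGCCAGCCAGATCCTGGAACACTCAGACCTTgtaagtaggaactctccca
Nol3: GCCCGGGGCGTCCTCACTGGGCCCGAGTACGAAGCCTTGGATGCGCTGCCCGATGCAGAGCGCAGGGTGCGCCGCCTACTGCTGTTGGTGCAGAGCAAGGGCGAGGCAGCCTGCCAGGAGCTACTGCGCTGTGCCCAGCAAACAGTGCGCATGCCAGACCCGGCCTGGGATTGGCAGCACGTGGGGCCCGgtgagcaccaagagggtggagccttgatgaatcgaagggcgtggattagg

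Coding exons held more shared regions per Mb than introns. There were 36.6 coding-exon regions per Mb of coding sequence outside the 500 bp windows, against 26.9 in other exon sequence, 22.4 in introns and 15.5 between genes. Promoter regions, those with any base in such a window, numbered 222 per Mb of the windows. The other classes went by midpoint, so the promoter density is not a like measure to theirs. Coding sequence was 1.11% of the autosomal genome and held 1.58% of the shared regions. The ratio of coding exons to introns was 1.63 with both libraries. In the peaks of replicate 1 alone it was 1.68, and in those of replicate 2 alone 1.89. Among autosomes the share of shared regions that were coding-exon regions ran from 1.07% on chromosome 6 to 2.05% on chromosome 11.

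The coding-exon regions were close in value to open regions in introns and lower than promoters. Their median width was 240 bp (quartiles 200 and 300, range 71 to 1620). In replicate 1 their values ran from 0.199 to 6.69 with a median of 0.775 (quartiles 0.567 and 1.14). In replicate 2 they ran from 0.214 to 8.21 with a median of 1.16 (quartiles 0.802 and 1.77). The median log2 value minus that of intron regions was -0.03 in replicate 1 and 0.09 in replicate 2, a mean of 0.03 ± 0.08 (SD, n = 2). The 2 libraries differed in sign here, and the difference was smaller than the spread between them. Against promoter regions the difference was -0.91 and -0.93, and against intergenic regions 0.12 and 0.18. The plot of values by place shows that the quartiles of the 4 classes outside promoters overlapped in both libraries.

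**Figure D1:**
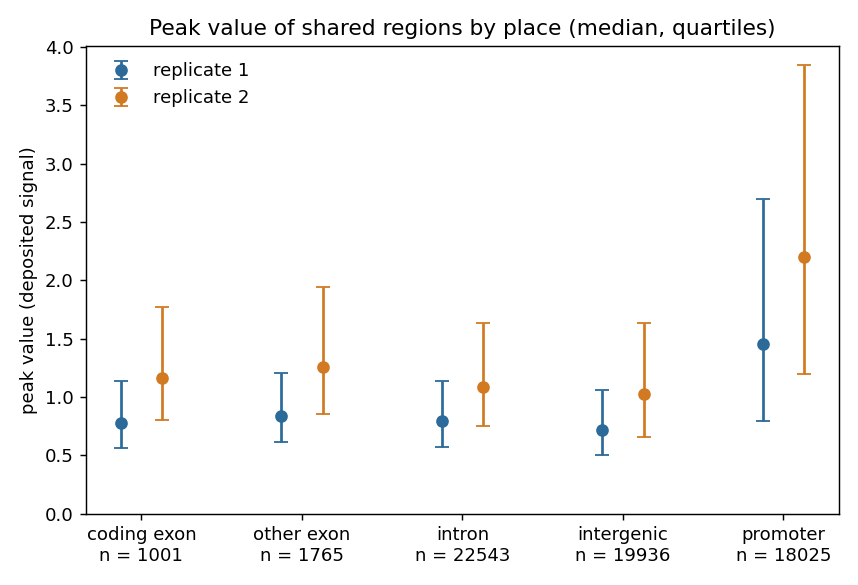
Peak value (deposited signal, linear axis) of shared autosomal regions by place, with medians as points and quartiles as bars, for replicate 1 (blue) and replicate 2 (orange). Promoter regions have any base within 500 bp of a start, and the others are placed by midpoint. The medians of coding-exon regions, 0.775 and 1.16, sit close to those of intron regions and below those of promoters.

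The strongest 12 regions had values from 1.96 to 6.69 in replicate 1 and from 3.30 to 8.21 in replicate 2. Replicate 2 was higher in all 12, as it was in 90.2% of all members and 84.6% of all shared autosomal regions. The highest was in Angptl6, which encodes a secreted angiopoietin-like protein, at chr9:20878141-20878480 (mm10). Its value was 6.69 in replicate 1 and 8.21 in replicate 2. This region lay wholly inside exon 2, its first coding exon, 1416 bp from the nearest start, and the promoter of Angptl6 was not open in both libraries. It held 7 footprints in replicate 1 and 6 in replicate 2.

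The second by mean log2 value, in B430305J03Rik, had values of 4.69 and 4.81 and spanned the stop codon. The region of Fbxl22, an F-box gene, had 4.40 and 5.10 and crossed the acceptor edge of its last exon, reaching past the stop codon. That of 1700008O03Rik had 3.78 and 4.98 and also held the stop codon. 2310034G01Rik, whose sequence is printed above, had 2.96 and 4.58 and was entirely coding. Among these 4 the replicates were closest in B430305J03Rik and farthest apart in 2310034G01Rik, by 1.55-fold.

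Utp4, which encodes a factor of small ribosomal subunit assembly, had 2.96 and 4.10 across the donor edge of exon 7 of 17. Gabbr2, which encodes a subunit of the GABA-B receptor, had 3.05 and 3.96 over the whole of exon 14. Slc1a6, a glutamate transporter gene, had 2.73 and 3.89 over its first coding exon. Synpo2l, which encodes an actin-associated protein of striated muscle, had 2.79 and 4.29 inside its last exon. Sft2d3 had 3.15 and 3.30.

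Gm11168 had 3.52 and 3.69, but all of its central window was masked as repeat in the reference. It was the only 1 of the 1001 regions with at least 50% of the window masked (0.0999%), against 1.60% of intron regions. Reads from repeat copies cannot be assigned to 1 place with certainty, and no source used here states how they were treated. Rsad1 differed most between the libraries among the 12, with 1.96 and 5.30. Of the 12 host genes, 7 had an open promoter in both libraries and 5 did not, and 7 of the 12 regions were CpG-rich as defined below.

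Coding-exon regions at splice edges had values near those of regions inside exons. In 340 of 1001 cases (34.0%, 31.0% to 37.0%) the region lay wholly inside a coding exon. It held a whole exon in 216 cases, crossed the acceptor edge in 232 and the donor edge in 139, and in 74 it crossed only the boundary of the coding sequence. Median values were 0.726 and 1.15 for those inside an exon, 0.783 and 1.16 across the acceptor edge, 0.775 and 1.19 across the donor edge, and 0.820 and 1.13 where a whole exon was held. These medians lay within the quartiles of all members in both libraries. The sequence regions printed above had 2.55 and 2.66 in Arfgef3, 2.01 and 2.90 in Ankrd11, a chromatin regulator gene, 2.25 and 2.74 in Fry and 1.78 and 3.10 in Nol3, which encodes a repressor of apoptosis. Ctc1, a telomere maintenance gene, had 2.31 and 3.65 across the acceptor edge of its last exon.

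The start codon edge lay in 26 regions and the stop codon edge in 124. Among the former, Psmc2, which encodes an ATPase of the proteasome, had 2.45 and 3.24, and Itpkb, an inositol phosphate kinase gene, had 1.24 and 1.60. The rule itself keeps regions away from starts, and so from many start codons. Across the border of the rule, the 64 regions at 401 to 500 bp from a start with a midpoint in coding sequence had medians of 0.718 and 1.05, and the 40 at 501 to 600 bp had 0.748 and 1.16.

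On the transcripts used, coding-exon regions were more often in last, first and single coding exons, and less often in internal ones, than coding bases were. Each region was placed on a coding transcript that held its midpoint, which need not be the transcript counted for the bases of that gene. The shares of regions and of bases are therefore not wholly alike as measures, and the part of this in the differences was not tested. Last coding exons held 276 regions (27.6%, 24.8% to 30.5%) but 17.1% of the coding bases outside the 500 bp windows, counted over 1 transcript per gene. First coding exons held 9.29% (7.56% to 11.3%) against 5.17% of bases, and genes with a single coding exon 10.5% (8.66% to 12.6%) against 7.71%. Internal exons held 52.6% (49.5% to 55.8%) against 70.0% of bases. By position along the coding sequence, the last of 5 equal parts held 26.9% (24.1% to 29.7%) of the regions and 22.5% of the bases, and the first 13.0% (11.0% to 15.2%) and 15.3%. The coding exon that held a region had a median length of 252 bp, against 189 bp for the exon of the median coding base. Of 734 regions in genes with more than 1 coding transcript, 206 (28.1%) lay in coding sequence of all of them. The value for bases was 34.3%, but it covers only the 1 transcript counted per gene, judged at the middle of each exon. A region outside that transcript cannot lie in all of them, so the value for regions is lower by construction and cannot be set directly against that for bases.

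**Figure D2:**
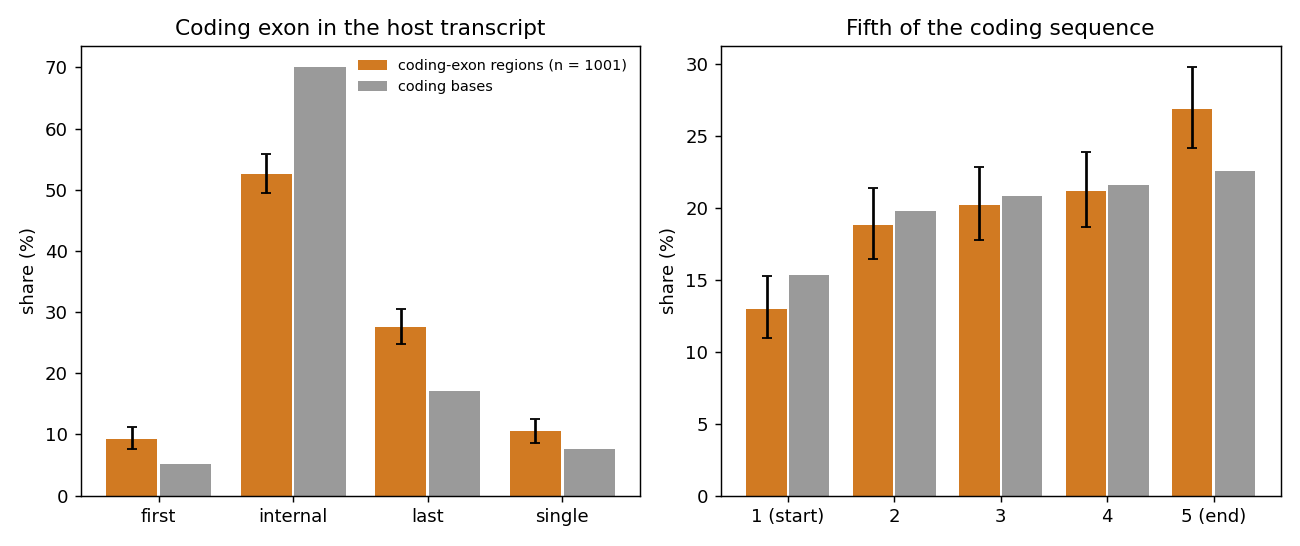
Share of the 1001 coding-exon regions (orange, with exact 95% intervals) and of coding bases (grey) by kind of coding exon on the left and by position along the coding sequence on the right, both in percent on a linear axis. Last exons hold 27.6% of the regions and 17.1% of the bases, and internal exons 52.6% and 70.0%. The transcript on which a region was placed need not be the one counted for the bases.

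Coding-exon regions were richer in GC than windows around coding exons without a peak. In a window of 100 bp on either side of the midpoint, the central window, the median GC content was 57.2% (quartiles 50.7% and 63.7%), against 49.3% (42.8% and 55.2%) in windows around 163149 coding exons that touched no peak of any list. It was 49.3% in intron regions, 51.2% in other exon regions and 64.2% in promoters. A window was called CpG-rich when its GC content was at least 50% and it held at least 0.6 of the CpG dinucleotides that its C and G content predicts. CpG-rich windows made up 364 of the 1001 (36.4%, 33.4% to 39.4%), against 3.96% (3.71% to 4.22%) of intron regions, 4.42% of coding exons without a peak and 69.6% of promoters. On this measure the coding-exon regions lay between introns and promoters. Windows around short exons also held bases outside the exon, and the median coding segment, over 1 transcript per gene, was 128 bp. Neither the coding share of the windows nor the distance from starts was matched between regions and exons without a peak. The motif shares below use the same windows.

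**Figure D3:**
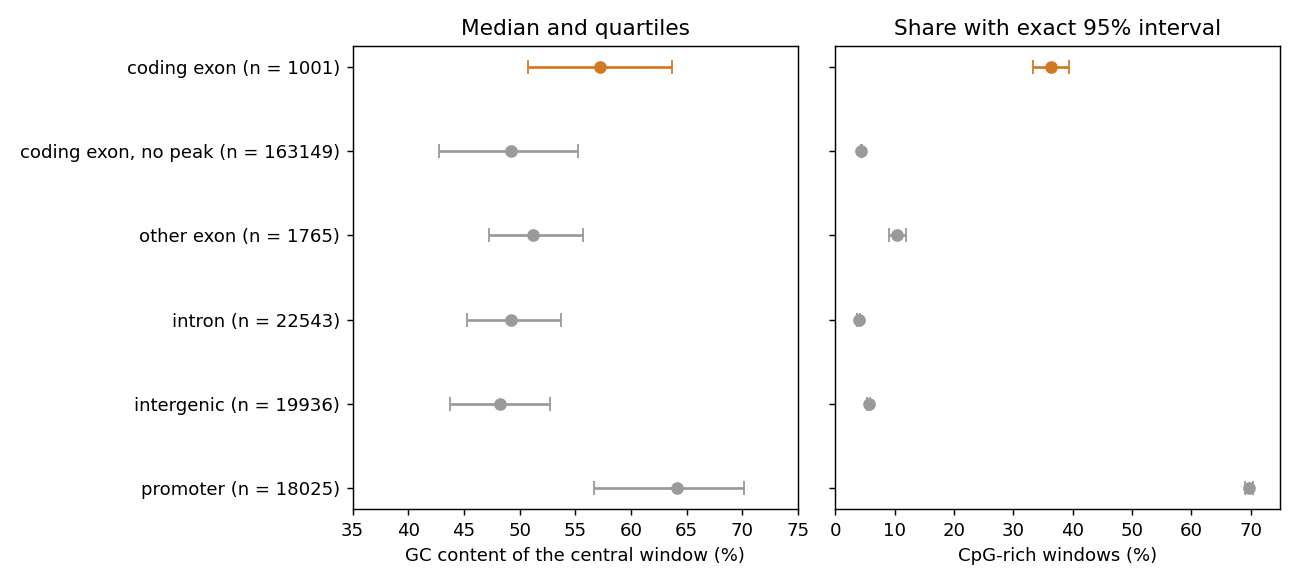
Base composition in the central window of each region: GC content in percent, as medians with quartiles, on the left, and the share of CpG-rich windows in percent with exact 95% intervals on the right. Coding-exon regions (orange) have a median GC of 57.2% and a CpG-rich share of 36.4%, against 49.3% and 4.42% in windows around coding exons that touched no peak.

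The CpG-rich regions had medians of 0.860 in replicate 1 and 1.34 in replicate 2, against 0.736 and 1.06 for the other 637. GC content was lower farther from the nearest start. Its median was 62.7% in the 128 regions within 1 kb, 60.7% at 1 to 2 kb, 57.2% at 2 to 5 kb, 54.7% at 5 to 20 kb and 52.2% in the 117 beyond 20 kb. The median distance was 3981 bp (range 571 to 196002). GC content also differed by place: its median was 61.2% in regions wholly inside a coding exon and 52.7% where a whole exon was held.

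Footprints were found in most regions. Of the 1001, 931 held a footprint in replicate 1 and 912 in replicate 2, and 874 held 1 in both (87.3%, 85.1% to 89.3%), against 90.3% of intron regions (90.0% to 90.7%). The share was higher in regions of higher value: 74.6% (69.5% to 79.1%) in the third of lowest value, 88.9% (85.01% to 92.1%) in the middle and 98.5% in the highest. Intron regions had 78.2%, 94.6% (94.1% to 95.1%) and 98.8%, so the intervals were apart for regions of middle value. The mean number was 2.88 per region in replicate 1 and 2.87 in replicate 2. A footprint of replicate 1 overlapped 1 of replicate 2 in 749 regions, and 1440 of the 2885 footprints of replicate 1 did so (49.9%). No footprint was found in 32 regions in either library.

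Counted as footprints of replicate 1 that overlapped at least 1 of replicate 2, the largest number was 9, in Exoc3l2, whose region had values of 1.66 and 2.43. Gdf15, a stress-responsive member of the TGF-beta family, had 8, with 1.85 and 3.77. Angptl6, 1700008O03Rik and Lactbl1 followed with 7 each. Lactbl1 had 1.07 and 1.91 in a region of 620 bp, and its values were close to the upper quartile of all members.

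Of 18 motifs searched on both strands of the central window, CTCF was the one most often inside a footprint among those with at least 20 matches in the members. CTCF matches were in 73 coding-exon regions (7.29%, 5.76% to 9.08%), 8.11% (7.76% to 8.47%) of intron regions and 0.227% (0.204% to 0.251%) of coding exons without a peak. Over all shared autosomal regions the share was 7.53%. The same pattern read backwards without complementing was in 0.200% of coding-exon regions. Of the 74 matches, 54 (73.0%) lay wholly inside a footprint in replicate 1, 63 (85.1%) in replicate 2 and 52 in both. Intron regions had similar shares, 74.4% and 86.6%.

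Several other motifs had different shares in coding exons and introns. The AP-1 motif (TGANTCA), bound by Fos and Jun, was in 7.69% (6.12% to 9.52%) of coding-exon regions against 16.3% (15.9% to 16.8%) of intron regions, 12.6% of all shared autosomal regions and 4.68% (4.58% to 4.78%) of coding exons without a peak. Read backwards, the AP-1 pattern was in 3.20% of coding-exon regions and 5.59% of intron regions. None of the 79 AP-1 matches in the members was in a footprint of both libraries, with 2 in replicate 1 and 7 in replicate 2. Such matches were also few elsewhere: 186 of 8961 over all shared autosomal regions and 75 of 4142 in introns. The share in a footprint of replicate 2 was 8.86% in the members and 9.25% over all shared autosomal regions. In replicate 1 the shares were 2.53% and 7.05%. The E-box CAGCTG, bound by basic helix-loop-helix factors, was in 24.6% (21.9% to 27.4%) against 18.0% (17.5% to 18.6%), and in 14.9% of coding exons without a peak. The E-box CAGATG was in 24.7% (22.03% to 27.5%) against 28.2% (27.7% to 28.8%), and in 18.2% of coding exons without a peak. The E-box CACGTG was in 4.995% (3.73% to 6.53%) against 4.01%, which lies inside that interval. The SP/KLF motif (GGGCGG) was in 17.8% (15.5% to 20.3%) against 8.21% in introns and 51.8% in promoters. It was as frequent backwards in the coding-exon regions, at 17.4%. The EGR motif (GCGTGGGCG) was in 11 regions (1.10%) against 0.217%, with 7 of 11 matches in a footprint in each library. Backwards it was in 0.699% (0.282% to 1.44%) of coding-exon and 0.0532% of intron regions. The MEF2 motif was in 1 region (0.0999%, 0.00253% to 0.555%) against 0.989% of intron regions and 0.162% of coding exons without a peak. The remaining 10 motifs ranged from 0.200% for NFI (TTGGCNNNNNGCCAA) to 3.50% for RFX (GTTGCCA). Between these were T-box (GGTGTGA) at 3.20%, ETS (CCGGAAG) at 2.20%, YY1 (AAGATGGC) at 1.60% and SOX (ACAATGG) at 1.30%. NRF1 (CGCATGCG) was in 0.899%, CRE (TGACGTCA) in 0.799%, POU (ATGCAAAT) in 0.699% and REST (TTCAGCACC) in 0.400%. The intron shares of NRF1 (0.204%), POU (1.69%) and ETS (1.24%) lay outside the intervals of the coding-exon shares. For the other motifs among these 10 the intron share lay inside. Backwards, ETS was in 5.49% of coding-exon and 2.57% of intron regions, NRF1 in 0.300% and 0.0222%, and POU in 0.0999% and 0.0932%. ETS matches were as frequent, at 2.22%, in coding exons without a peak, and 11.6% of promoters held one.

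**Figure D4:**
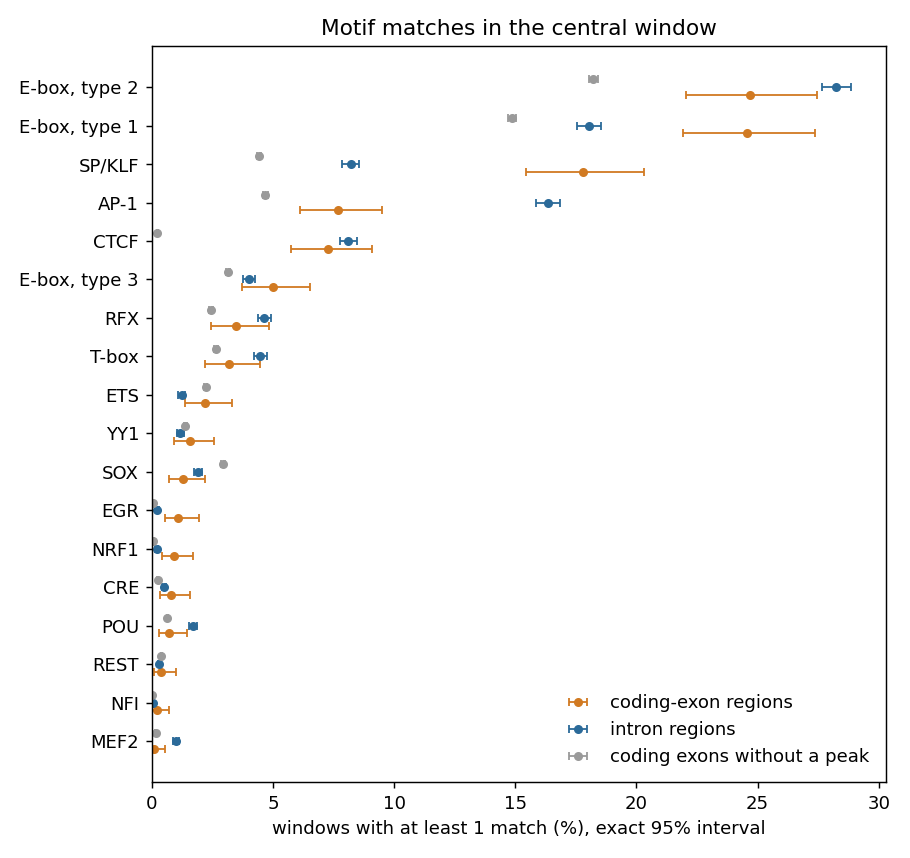
Share of central windows with at least 1 match to each of 18 motifs, in percent with exact 95% intervals, for coding-exon regions (orange), intron regions (blue) and coding exons without a peak (grey). E-box type 1 is CAGCTG, type 2 is CAGATG and type 3 is CACGTG. CTCF stands at 7.29% and 8.11% in open regions and 0.227% without a peak, and AP-1 at 7.69% in coding-exon against 16.3% in intron regions.

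The 2 libraries ranked the coding-exon regions alike. Across the 1001 Pearson's r of the log2 values was 0.820 and Spearman's rho 0.808, as a description over regions that share their libraries. Replicate 2 was higher in 903 (90.2%), against 84.6% of all shared autosomal regions. The median log2 difference, replicate 1 minus replicate 2, was -0.53, and -0.09 once centred on the median of all shared autosomal regions. Centred differences above 1 (replicate 1 higher by over 2-fold) were found in 2 regions, 0.200%, against 1.06% of all shared autosomal regions. Those below -1 were found in 40, 3.996%, against 4.68%.

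The regions that replicate 2 favoured most, among those at or above the median in at least 1 library, were in Rarg, Sgtb, Mms22l, Acpp and Dglucy. Rarg, a retinoic acid receptor gene, had 0.537 in replicate 1 and 2.34 in replicate 2. Sgtb, a co-chaperone gene, had 0.706 and 2.99. Mms22l, a gene of replication fork repair, had 1.06 and 4.40 in a region wholly inside an exon. In the other direction the largest differences were in Smim5 (0.810 and 0.562), Arhgef7 (0.929 and 0.651), Gm815 (1.05 and 0.740), the last exon of Gabbr2 (1.24 and 0.883) and Lonp2 (2.39 and 1.77). In these 5 replicate 1 was the higher library even before centring.

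Regions with a CTCF match were higher in replicate 2 beyond the shift of all regions. The 73 coding-exon regions with a CTCF match had medians of 0.845 in replicate 1 and 1.82 in replicate 2, and the 928 without had 0.760 and 1.11. Their centred log2 differences had medians of -0.58 and -0.06. Of the 73, 68 (93.2%) were below 0 after centring, against 515 of the 928 (55.5%). The same held in the other classes, with centred medians of -0.70 for CTCF matches in introns against 0.10 without, and -0.45 against -0.06 in promoters. By the inferred read numbers replicate 1 was the deeper library, and the part of depth in this difference was not tested. The 52 regions with a match inside a footprint of both libraries were all higher in replicate 2 before centring, as were 90.2% of all members.

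**Figure D5:**
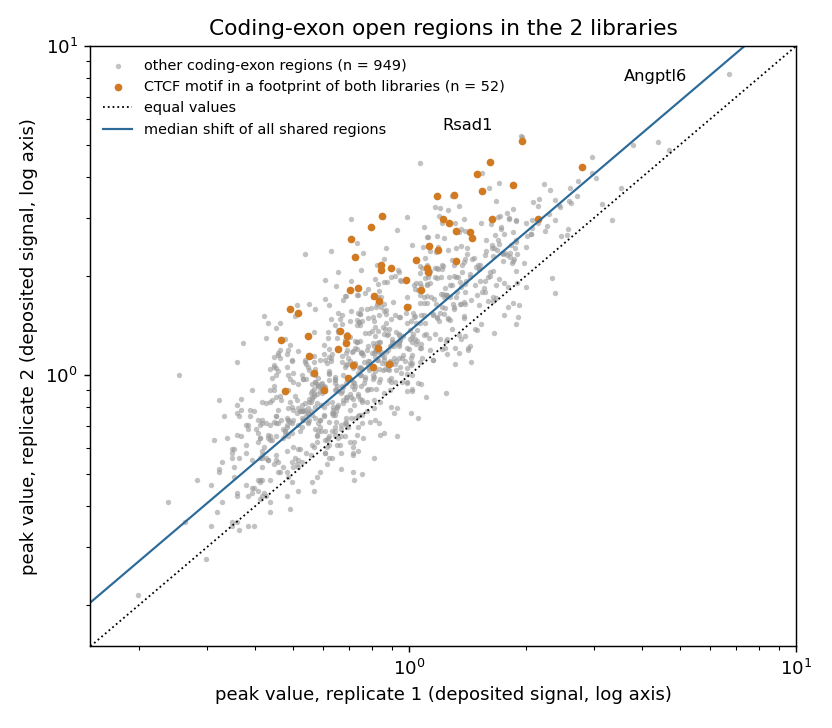
Peak value of each of the 1001 coding-exon regions in replicate 1 (horizontal) and replicate 2 (vertical), both deposited signal on log axes. Points in orange have a CTCF match inside a footprint of both libraries, and all 52 lie above the dotted line of equal values. The blue line is the median shift of all shared autosomal regions, a factor of 1.36.

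Synpo2l was the highest of these 52 by mean log2 value. B3gat2, a glucuronosyltransferase gene, had 1.96 in replicate 1 and 5.14 in replicate 2, and Epg5, an autophagy gene, had 1.62 and 4.45. Irs2, the gene of an insulin receptor substrate, had 2.15 and 2.98. Dgki, a diacylglycerol kinase gene, had 1.496 and 4.07, a 2.72-fold difference. Gdf15 also carried such a match. Of the 52, 37 had a host gene with an open promoter, beside 716 of all 1001 members (71.5%).

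The 1001 regions belonged to 938 host genes, of which 886 held 1 region, 47 held 2, 2 held 3 and 3 held 5. Of the host genes, 663 (70.7%, 67.7% to 73.6%) had a promoter peak in both libraries, against 59.1% of 20807 autosomal protein-coding genes. The other 285 regions lay in genes whose promoter was not open in both. Their medians were 0.785 and 1.21, against 0.770 and 1.14 for the 716 under an open promoter, a smaller gap than that between the quartiles of either library. At 5 regions a second protein-coding gene also overlapped the midpoint.

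Macf1, Syne1 and Tchh held 5 regions each. Macf1 encodes a giant linker of actin and microtubules, and Syne1 a nuclear envelope spectrin-repeat protein. Their strongest regions had 2.07 and 2.97 in Macf1 and 1.17 and 1.65 in Syne1, and both promoters were open. Tchh encodes trichohyalin, a structural protein of the hair follicle, and its promoter was not open in both libraries. Its 5 regions all lay inside the last exon of 5685 bp, with values of 0.263 to 1.40 in replicate 1 and 0.357 to 1.66 in replicate 2. Islr2, a neuronal leucine-rich repeat gene, and Pdzd2 held 3 each. The regions of Islr2 were all in its single coding exon, with 0.586 to 1.04 in replicate 1 and 0.695 to 1.24 in replicate 2.

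Grouped by gene symbol, coding-exon regions were spread over many families. The density over all autosomal protein-coding genes was 37.6 per Mb of coding sequence of 1 transcript per gene. Glutamate receptor genes held 6 regions in 6 of 26 genes, 92.0 per Mb (exact 95% Poisson interval 33.8 to 200.2). Kinesins, the motors of microtubule transport, held 9 in 7 of 38 genes, 80.9 per Mb (37.0 to 153), led by Kif26b at 1.19 and 2.41. Sox, Fox and Hox factors held 8 in 7 of 98 genes, 95.2 per Mb (41.1 to 188), led by Sox12 at 1.74 and 2.34. Potassium channels held 8 in 8 of 92 genes, 64.0 per Mb (27.6 to 126), led by Kcnb2 at 1.39 and 2.21. Among these 4 groups, Sox, Fox and Hox factors alone had an interval that lay above the overall density, and 27 groups were counted in all.

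Zinc finger genes held 15 in 415 genes, 21.3 per Mb (11.9 to 35.1), led by Zfp771 at 3.35 and 2.96, where replicate 1 was the higher library. Solute carriers held 15 in 14 of 358 genes, 31.3 per Mb (17.5 to 51.7). Calcium channels held 5 in 4 of 25 genes, led by Cacna1s, the channel of skeletal muscle, at 1.82 and 2.35. Olfactory receptor genes, which are silent outside sensory neurons in most tissues, held 3 in 3 of 1128 genes, 5.27 per Mb (1.09 to 15.4), the lowest density of the families with a member. Keratins held 4 in 4 of 53 genes, led by Krt88 at 0.855 and 3.03. Collagens, protocadherins, ADAM proteases and ubiquitin specific proteases held 3 each. No region was found in ankyrins, laminins, ribosomal proteins, heat shock proteins or phosphodiesterases, of which laminins, with the most coding sequence, had an exact upper limit of 57.0 per Mb.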

How the data were processed

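The labels give 2 DNase-seq libraries of 1 tissue. For each library the authors deposited 2 peak lists with a signal per peak, footprints, and intervals scored by false discovery rate (FDR). Peak caller, aligner, normalization and treatment of reads from the CAST/EiJ allele: not given in the sources used here. Coordinates are mm10 per the deposited descriptions. The p-value column deposited with the footprints holds the threshold 0.01 throughout, and the deposited intervals carry an FDR q-value below 0.05. The lowest FDR of the intervals under a member had a median of 3.88e-08 in replicate 1 and 4.49e-09 in replicate 2.

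The shorter peak list of each library was used. Overlapping or adjoining peaks of both libraries were merged, and a region took the strongest peak of each library as its value. Regions with any base within 500 bp of a start were classed as promoters. All others were placed by their midpoint with GENCODE M21. Footprints counted when wholly inside a region. GC, CpG, repeat masking and motifs were read within 100 bp of the midpoint (the central window), from the GRCm38.p6 genome. A promoter was open with a peak of each library within 500 bp of any start of the gene. The functions were tested on simulated data. Python 3.11.15, numpy 2.4.6, pandas 2.3.3, scipy 1.17.1 and pysam 0.24.0 were used.

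With 1 group of 2 libraries no test between groups was made. Shares have exact (Clopper-Pearson) 95% intervals, and log2 differences between the libraries were centred on all shared autosomal regions. The members, gene groups and motifs were chosen with earlier results of these data known. Named genes were the 12 highest members, the 5 with the largest centred difference each way among those at or above the member median in at least 1 library, the 5 host genes with most members, the 5 members with most footprints found in both, the 3 highest of each kind of place and of those with a CTCF match, and the highest of each gene group with at least 3 members. Some that the rule takes are not reported here. Sequences were high members that met the limits given with them, and not every higher one is printed. Alternatives varied the peak list, strength, overlap, distance from starts, transcripts, coding share, libraries and merging.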

Additional observations from a re-analysis of the deposited data

How the results depend on the processing

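Of 79 values recomputed under alternatives, 47 stayed within the error of the value reported and 32 did not. The log2 difference from introns, 0.03 with both libraries, changed sign when all peaks of 1 library, shared or not, were used. It was -0.01 without replicate 1 and -0.02 without replicate 2. Both values lay within its range and are among the 47, so staying within the range does not mean that the sign was kept. With the longer peak list there were 1757 coding-exon regions, 1.77% of shared autosomal regions, with a replicate difference of -0.49, a footprint in both libraries in 74.2%, 29.8% wholly inside an exon, and an open promoter in 77.6% of host genes. With the stronger 50% of peaks there were 504 regions, with a GC content of 59.2%, footprints in 95.6%, a CTCF motif in 9.72% and an open promoter in 63.8%. With 2000 bp from starts there were 657 regions (1.04%), with a replicate difference of -0.49, a GC content of 54.7%, footprints in 90.1% and 28.3% inside an exon. With at least 50% of the region coding the share was 1.39%, the density ratio of coding exons to introns 1.43, the GC content 58.2% and the share inside an exon 38.8%. Leaving out each library in turn gave 1464 to 1615 regions, a share of 1.73% to 1.87%, a log2 difference from introns of -0.02 to -0.01, a density ratio of 1.68 to 1.89, a GC content of 57.7%, footprints in 78.1% to 84.2%, a CTCF motif in 5.53% to 6.87%, 45.6% to 47.0% inside an exon and an open promoter in 74.3% to 77.1%. These single-library settings took every peak of the remaining library, unmerged and whether shared or not. They counted footprints and open promoters in that library alone. Their values are therefore not like measures to those given for both libraries. A single library gives no difference between replicates. The density ratio was above 1 in all 9 settings in which it was computed. The 50% overlap and the choice of transcripts moved no value outside its range. Merging only overlapping peaks, an alternative chosen after seeing the data, gave 1009 regions. No paired analysis was possible because there was only 1 group. Depth limits the weakest members, which rest on 40 and 24 inferred reads.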
